A study of Mus musculus with 8 samples.

Results

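The miR-181 family of the mouse comprises mmu-miR-181a, mmu-miR-181b, mmu-miR-181c and mmu-miR-181d, and its levels were compared between basal progenitors of the embryonic cortex at E16 and at E13. The 4 members were taken by name from the annotation of the arrays, which measured 611 mouse miRNAs with 1759 probes. Each member had 2 probes, and each probe was printed 10 times, so that 80 spots per array belonged to the family. MicroRNAs were profiled on 4 one-colour Agilent arrays per stage, with total RNA of FACS-isolated cells labelled with cyanine-3. The E16 group held 4 samples from embryonic day 16 and the E13 group 4 samples from embryonic day 13, all marked WT and all from the brain cortex. The submitters' design text names 4 biological replicates from 3 litters per stage, so some replicates may share a litter, and the p-values then partly measure the spread within litters. The gate used to sort the cells, the mouse strain and any reporter allele are not given in the sources used here. Basal progenitors, also called intermediate progenitors, divide away from the ventricular surface and give rise to neurons. In a sorted population, fewer cells of a type and less of a miRNA per cell cannot be told apart.

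A mature miRNA guides Argonaute proteins to messenger RNAs, mainly through pairing of its seed, bases 2 to 8 from the 5′ end, and lowers their stability and translation. The members of the miR-181 family share their seed and can therefore bind overlapping sets of targets. The family is best known from mouse lymphocytes, where it tunes the sensitivity of developing T cells to antigen, and it is also expressed in the brain. The 4 mature sequences, from RefSeq with the GRCm38.p6 assembly, are printed 5′ to 3′ to show the shared seed, in capitals, and the 3′ parts in which the members differ.
mmu-miR-181a: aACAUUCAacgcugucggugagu
mmu-miR-181b: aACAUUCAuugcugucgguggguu
mmu-miR-181c: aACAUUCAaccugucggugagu
mmu-miR-181d: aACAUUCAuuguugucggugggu
The seed ACAUUCA was held by 4 of the 1679 mature mouse miRNAs in the RefSeq table (0.238%), all of them members of the family. Counted from the 5′ end, mmu-miR-181b differed from mmu-miR-181a by A9U, C10U and A21G and by 1 more base at its 3′ end. The miR-181c sequence equalled that of miR-181a with the base at position 11 missing. The miR-181d sequence differed from that of miR-181b by C12U and was 1 base shorter at its 3′ end. By sequence, the members thus paired across the genomic loci, miR-181a with miR-181c and miR-181b with miR-181d.

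The array probes are complementary to the 3′ part of each miRNA, and none of the 8 reached across the whole seed. Their sequences are shown because they set how far the signals of related members can mix. Capitals mark the unbroken run of bases, counted from the 5′ end, that the miR-181a and miR-181c probes share (12 bases). For the miR-181b and miR-181d probes the shared run in capitals is 11 bases long. The first probe given for each member was the brighter one and stands for that member in the comparison of stages.
miR-181a brighter probe: ACTCACCGACAGcg
miR-181a dimmer probe: ACTCACCGACAGc
miR-181c brighter probe: ACTCACCGACAGgttgaat
miR-181c dimmer probe: ACTCACCGACAGgttgaa
miR-181b brighter probe: ACCCACCGACAgca
miR-181b dimmer probe: ACCCACCGACAgc
miR-181d brighter probe: ACCCACCGACAacaatg
miR-181d dimmer probe: ACCCACCGACAacaat
Counted from the 5′ end, probes of members from the same locus were alike over 2 bases before their first difference. Beyond it further bases were alike, and the miR-181a and miR-181b probes shared most of their bases. The brighter miR-181a probe of 14 bases had 2 mismatches to miR-181b, 2 to miR-181c and 3 to miR-181d when laid on them without a gap. The dimmer miR-181a probe of 13 bases had 1 mismatch each to miR-181b and miR-181c. The brighter miR-181b probe had 1 mismatch to miR-181d, and both miR-181d probes had 1 mismatch to miR-181b. The dimmer miR-181b probe had 1 mismatch each to miR-181a and miR-181d. The miR-181c probes, 19 and 18 bases long, had at least 4 mismatches to each of the other members, although 12 bases in a row paired with miR-181a. How much of a probe's signal came from a related member was not tested.

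The family is encoded at 3 places in the mouse genome. Per the file annotations, which place probes on mm9, the brighter miR-181a probe matched the plus strand at chr1:139863054-139863067 and at chr2:38708270-38708283. The brighter miR-181b probe matched the same strand close by, at chr1:139863236-139863249 and chr2:38709374-38709387, so that miR-181a and miR-181b lie side by side at both places. The brighter probes of miR-181c and miR-181d were placed on the minus strand at chr8:86702792-86702809 and chr8:86702628-86702643, ranges that are 1 base shorter than the probes and are given as the files have them. In the RefSeq gene table of GRCm38.p6 the chromosome 2 hairpins, Mir181a-2 and Mir181b-2, lay within the bounds of Nr6a1, the gene of an orphan nuclear receptor, and of its antisense gene Nr6a1os. The hairpins on chromosomes 1 and 8 overlapped no other gene in that table. Since miR-181a and miR-181b each come from 2 genes with the same mature sequence, their array signals do not tell the chromosome 1 and chromosome 2 copies apart.

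The arrays differed in brightness. Between 76 and 170 miRNAs per array were well above background at E16, and between 119 and 206 at E13. E16 replicate 4 was the dimmest array, with 76 miRNAs, and results that it changes are also given without it. Arrays were scaled to their own 75th percentile over the 126 mouse probes that passed the background threshold throughout, and levels are log2 values of the scaled signal. E16 replicate 1 was alone on slide 1, while slide 2 held E16 replicates 2 and 3 with E13 replicates 1 and 2, and slide 3 held E16 replicate 4 with E13 replicates 3 and 4. All E16 arrays lay in row 1 of their slide and all E13 arrays in row 2, so row and stage cannot be told apart. Of the markers listed for the sorted cells, miR-9 and miR-9*, known from neural progenitors as well as from neurons, passed the background threshold on all 8 arrays. All 22 markers of blood and immune cells, red blood cells, endothelium, mural and mesenchymal cells and epithelium on the array stayed below that level on every array.

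Over the 4 members, miR-181a was higher at E16, miR-181c had a higher mean at E16 that did not pass the test, and the differences of miR-181b and miR-181d were within the spread of the arrays. All 4 were well above background on all 8 arrays and entered the test. With limma and Benjamini-Hochberg adjustment over all 153 miRNAs, 1 member was called higher at E16 and 0 were called lower, at a threshold of 0.05. Over all tested miRNAs 7.19% were called higher and 26.1% lower. The median log2 difference, E16 minus E13, was 0.30 over the members and −0.40 over all tested miRNAs. The tested miRNAs included some that passed the background threshold on E13 arrays only, miR-153 among them. With scaling to the 75th percentile of every mouse probe, bright or dim, 47 miRNAs were called higher and 16 lower, against 11 and 40 as reported, and the median of all tested miRNAs moved to 0.42. With quantile normalization the counts were 20 higher and 27 lower, with a median of −0.09. The first of these settings shifts all miRNAs of an array alike and so leaves differences relative to the median as they were, 1.25 for miR-181a, 0.48 for miR-181b, 0.92 for miR-181c and 0.29 for miR-181d. With quantile normalization they were 1.08, 0.23, 0.89 and 0.12 for the same members in the same order. With all 611 miRNAs in the fit the median was at 0, and miR-181d lay at −0.11.

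**Figure D1:**
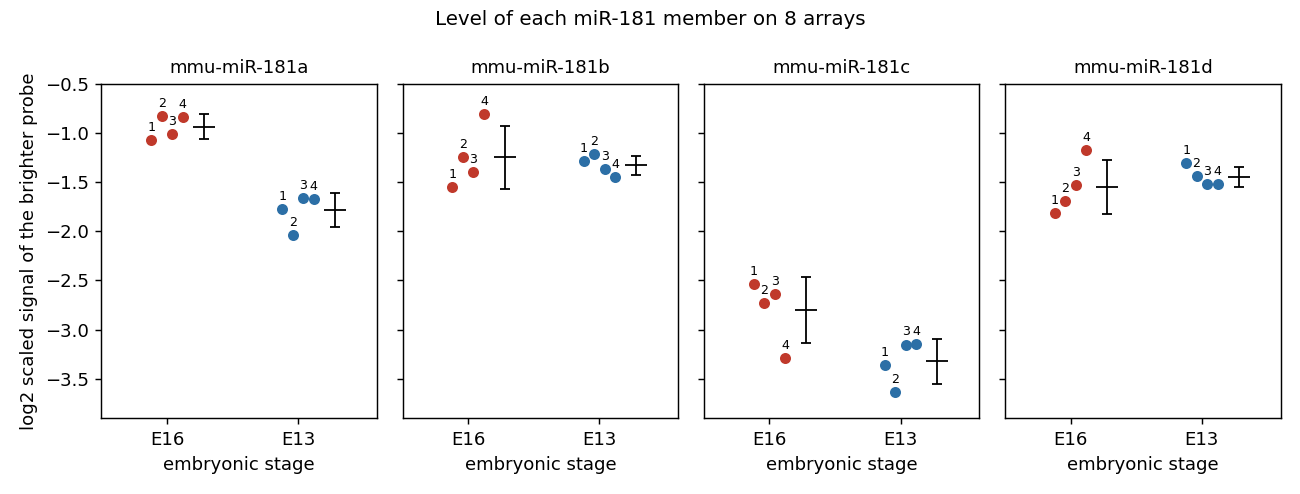
Log2 scaled signal of the brighter probe of each miR-181 member on the 4 E16 arrays (red, left) and the 4 E13 arrays (blue, right); numbers are replicates, and the black bars give the mean and the SD. The miR-181a points of E16 all lie above those of E13, at −1.07 or higher against −1.66 or lower, while the points of the other members overlap between the stages.

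The brighter miR-181a probe had processed signals of 290, 422, 140 and 60.9 on E16 replicates 1 to 4, against 47.4, 77.3, 155 and 91.9 on E13 replicates 1 to 4. These unscaled signals followed the brightness of the arrays, and the dimmest array, E16 replicate 4, gave a lower unscaled signal than 3 of the E13 arrays. After scaling, the log2 levels of miR-181a were −1.07, −0.83, −1.01 and −0.84 at E16, against −1.78, −2.03, −1.66 and −1.68 at E13. Every E16 array lay above every E13 array, which was so, in either direction, for 38.6% of all tested miRNAs. The mean log2 level was −0.94 ± 0.12 at E16 and −1.79 ± 0.17 at E13 (SD, n = 4 arrays each). The difference was 0.85 (SE 0.15, 95% confidence interval 0.51 to 1.19), or 1.80-fold, with a limma adjusted p of 0.0020. By the size of its rise miR-181a ranked 10 among the 153 tested miRNAs.

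The signal of miR-181b, the neighbour of miR-181a at both of its loci, did not separate the stages. Its log2 levels were −1.55, −1.25, −1.39 and −0.81 at E16, against −1.29, −1.22, −1.36 and −1.45 at E13. The E16 arrays spanned more than the whole range of the E13 arrays, with E16 replicate 1 lowest and E16 replicate 4 highest of all 8. Means were −1.25 ± 0.32 at E16 and −1.33 ± 0.10 at E13 (SD, n = 4 each), and the difference of 0.08 (SE 0.19, interval −0.34 to 0.50) had a limma adjusted p of 0.77. The interval leaves room for a change of either sign. Without E16 replicate 4 the difference was −0.068. After scaling to the 75th percentile of every mouse probe it was called higher (0.90, limma adjusted p 0.013), and within slide 3, where E16 replicate 4 is the only E16 array, it was 0.60.

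The miR-181c level was higher on 3 of the 4 E16 arrays than on any E13 array. The log2 levels were −2.54, −2.73, −2.63 and −3.29 at E16, against −3.36, −3.63, −3.15 and −3.14 at E13. E16 replicate 4 was the exception and lay within the E13 range. Its unscaled signal there was 11.1, the lowest of the 8 arrays, where the others gave 105, 113 and 45.4 at E16 and between 15.8 and 55.2 at E13. Means were −2.80 ± 0.34 at E16 and −3.32 ± 0.23 at E13 (SD, n = 4 each). The difference of 0.52 (SE 0.21, interval 0.05 to 0.996) had an unadjusted p of 0.033 and a limma adjusted p of 0.080, and so did not pass the threshold. The call turned on the processing, since without E16 replicate 4 the difference was 0.69 with an adjusted p of 0.0095 in limma, and with quantile normalization it was 0.81 with an adjusted p of 0.0055. Within slide 3, where E16 replicate 4 is the only E16 array, it was −0.14.

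The miR-181d level, measured next to miR-181c on chromosome 8, did not separate the stages. Its log2 levels were −1.81, −1.69, −1.53 and −1.18 at E16, against −1.31, −1.44, −1.52 and −1.52 at E13. As for miR-181b, the E16 arrays enclosed the E13 range, with E16 replicate 4 the highest and E16 replicate 1 the lowest. Means were −1.55 ± 0.27 at E16 and −1.45 ± 0.10 at E13 (SD, n = 4 each), and the difference of −0.11 (SE 0.17, interval −0.50 to 0.29) had a limma adjusted p of 0.65. Its sign depended on the scaling, and after scaling to the 75th percentile of every mouse probe it was 0.71 with an adjusted p of 0.025 in limma. Without E16 replicate 4 the difference was −0.23 (limma adjusted p 0.20). Because different probes bind with different strength, the levels of the 4 members are not ranked against each other.

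Each member could be examined with a second, shorter probe. The dimmer miR-181a probe had log2 levels of −3.99, −2.96, −3.19 and −2.89 at E16, against −3.95, −4.16, −3.59 and −3.71 at E13. On 3 E16 arrays it was above all E13 arrays, but on E16 replicate 1 it was as low as at E13. In a limma fit over all 246 probes well above background on at least 4 arrays, its difference was 0.59 (SE 0.27, adjusted p 0.12), against 0.85 (adjusted p 0.0030) for the brighter probe. The dimmer miR-181c probe had log2 levels of −3.87, −3.97, −3.89 and −4.37 at E16, against −4.74, −5.20, −4.43 and −4.69 at E13. Its E16 levels all lay above its E13 levels, but narrowly, at −4.37 on E16 replicate 4 against −4.43. On E16 replicate 4 the probe was not well above background. Of single tested miRNAs 38.6% separated the stages, and the share of probes was not counted. The difference was 0.74, against 0.52 (SE 0.21, limma adjusted p 0.087) for the brighter probe. The dimmer miR-181c probe was well above background on 3 E16 arrays and 1 E13 array. It so entered the fit mainly through the stage where it was brighter, and its difference is given as a value without a call. Of the other 7 probes of the family, all well above background on all 8 arrays, 1 was called higher, the brighter miR-181a probe, and 0 lower, where 7.72% of all probes tested were called higher and 23.6% lower. The dimmer and brighter probes gave 0.09 and 0.08 for miR-181b and −0.01 and −0.11 for miR-181d. The 10 spots of a probe varied by a median of 8.64% (coefficient of variation), up to 35.9% for the dimmer miR-181c probe, where signal was lowest.

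**Figure D2:**
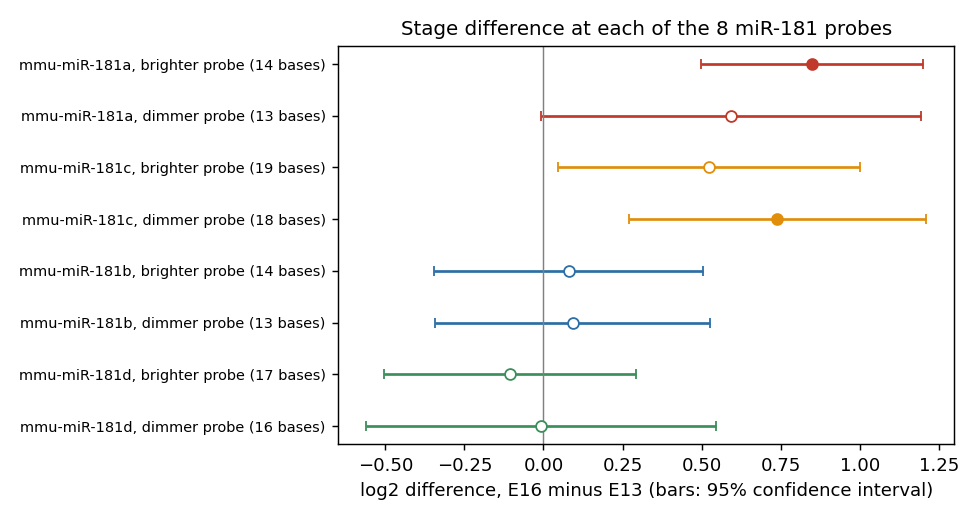
Log2 difference, E16 minus E13, at each of the 8 miR-181 probes, with 95% confidence intervals from the limma fit over 246 probes; filled points had an adjusted p under 0.05, which for the dimmer miR-181c probe is no call since it was well above background on 1 E13 array only. The 4 probes of miR-181a and miR-181c lie between 0.52 and 0.85, and the 4 probes of miR-181b and miR-181d between −0.11 and 0.09.

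Whether the members changed by different amounts was asked with the log2 ratio of each pair of members on the same array. Dividing all signals of an array by the same number leaves this ratio as it was. An exact two-sided permutation test over the 70 assignments of arrays to stages cannot give a p below 0.029, and p-values were adjusted over the 6 pairs. The log2 ratio of miR-181a over miR-181b was 0.48, 0.42, 0.38 and −0.03 at E16, against −0.49, −0.82, −0.30 and −0.23 at E13. All E16 ratios of this pair, which comes from the same loci, were above all E13 ratios. The difference was 0.77 (SE 0.18, interval 0.20 to 1.29; exact permutation p = 0.029, adjusted 0.086). The log2 ratio of miR-181a over miR-181d was 0.74, 0.86, 0.52 and 0.34 at E16, against −0.47, −0.59, −0.14 and −0.16 at E13. Again the stages did not overlap, and the difference was 0.96 (SE 0.16, interval 0.48 to 1.45; exact permutation p = 0.029, adjusted 0.086). Both pairs had the smallest p that the arrays allow, and neither passed the threshold of 0.05 after adjustment. With only these pairs of the 6 at that p, the adjusted p could not fall under 0.05, however large the difference. Missing the threshold is therefore no evidence that the members changed alike. How often ratios of other tested miRNAs separate the stages was not counted, and 38.6% of single tested miRNAs did so. Within slide 3, with E16 replicate 4 as its only E16 array, the differences were 0.23 for miR-181a over miR-181b and 0.49 for miR-181a over miR-181d. Without E16 replicate 4 they were 0.88 and 1.05, in the same order. The ratios do change with normexp background correction and quantile normalization, which gave differences of 0.53 and 0.60 (exact permutation p = 0.029, adjusted 0.086 for each).

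The pair on chromosome 8 overlapped between the stages. The log2 ratio of miR-181c over miR-181d was −0.73, −1.04, −1.10 and −2.11 at E16, against −2.06, −2.19, −1.63 and −1.62 at E13. On 3 E16 arrays this ratio was higher than on any E13 array, and E16 replicate 4 lay among the E13 values. The difference was 0.63 (SE 0.33, interval −0.49 to 1.46; exact permutation p = 0.11, adjusted 0.17), within slide 3 it was −0.48, and without E16 replicate 4 it was 0.92. The pairs of like 3′ sequence overlapped too. For miR-181b over miR-181d the log2 ratio was 0.30 ± 0.13 at E16 and 0.12 ± 0.09 at E13, a difference of 0.19 (SE 0.08, interval −0.09 to 0.42; exact permutation p = 0.086, adjusted 0.17). For miR-181a over miR-181c it was 1.86 ± 0.43 at E16 and 1.54 ± 0.07 at E13, a difference of 0.33 (SE 0.22, interval −0.13 to 0.98; exact permutation p = 0.20, adjusted 0.24). That value rests on E16 replicate 4, without which it was 0.13. The widest interval was that of miR-181b over miR-181c, whose difference was −0.44 (SE 0.36, interval −1.42 to 0.79; exact permutation p = 0.26, adjusted 0.26). It was −0.76 without E16 replicate 4 and −0.26 without E16 replicate 1.

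**Figure D3:**
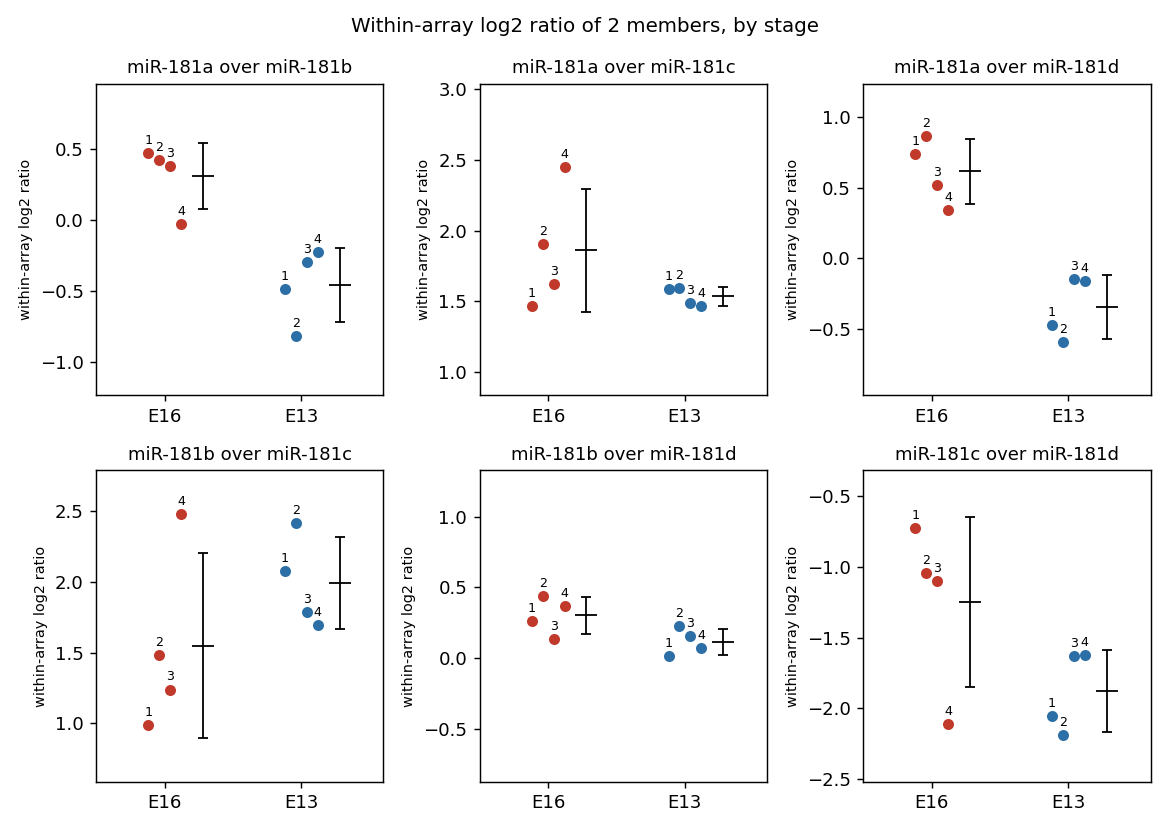
Within-array log2 ratio of each pair of miR-181 members on the 4 E16 arrays (red, left) and the 4 E13 arrays (blue, right), with replicate numbers and the mean and SD as black bars; every panel spans the same length of axis. Ratios of miR-181a over miR-181b and over miR-181d do not overlap between the stages. In the ratios that involve miR-181c, E16 replicate 4 lies apart from the other E16 arrays. It also does so for miR-181a over miR-181b, at −0.03 against 0.38 or higher.

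Across the 8 arrays the levels of the members were most alike within the pairs of like sequence. Pearson's r was 0.77 between miR-181b and miR-181d and 0.71 between miR-181a and miR-181c. Within the loci it was 0.25 between miR-181a and miR-181b and −0.74 between miR-181c and miR-181d. The other pairs gave −0.21 for miR-181a with miR-181d and −0.49 for miR-181b with miR-181c. These values describe 8 points that share array brightness and stage. Probe sequence is shared too, within the like pairs and beyond them. The brighter miR-181a probe had 2 mismatches to miR-181c and also 2 to miR-181b. The part of shared probe sequence in these values was not tested.

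Among the 71 other miRNAs well above background on all 8 arrays, the level of miR-181a most resembled those of miR-99a (r = 0.92), miR-100 (r = 0.92) and let-7b (r = 0.91), which were all called higher at E16 in the same limma fit. Their log2 differences were 1.53 for miR-99a, 1.75 for miR-100 and 2.66 for let-7b. As r was taken over the arrays of both stages, a shared stage difference raises it, so these calls are no separate result. The closest to miR-181c were miR-30e (r = 0.94), miR-26a (r = 0.91) and miR-30a (r = 0.90), with differences of 0.39, 0.48 and 0.18, none of them called. For miR-181b they were miR-709 (r = 0.96), miR-328 (r = 0.86) and miR-720 (r = 0.72). The same names, miR-720 (r = 0.94), miR-709 (r = 0.88) and miR-328 (r = 0.86), were closest to miR-181d. Levels of miR-709 had an SD of 1.42 over the E16 arrays and 0.45 over the E13 arrays, and its difference between the stages was 0.02 (limma adjusted p 0.97).

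Other products of the same genomic surroundings were measured beside the family. The opposite arm of the chromosome 1 hairpin, miR-181a-1*, was well above background on all 8 arrays. Its difference was 0.28 (SE 0.21, limma adjusted p 0.32), against 0.85 for miR-181a itself. The opposite arm of the chromosome 2 hairpin, miR-181a-2*, was well above background on 0 arrays. On chromosome 8 the next miRNA genes, on the other strand, are those of miR-23a, miR-27a and miR-24. The arrays held 5 of the 6 listed products of these genes, and of the 3 tested 1 was called higher and 0 lower, with a median difference of 0.43, where 7.19% of all tested miRNAs were called higher and 26.1% lower. The called one was miR-23a, at 0.99 (SE 0.24, limma adjusted p 0.0099). The level of miR-27a, on 3 arrays per stage, differed by 0.43 (adjusted p 0.37), and that of miR-24, which also comes from a second locus, by 0.02 (adjusted p 0.92).

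The neuron-associated miRNAs, which mark cells further along the path from progenitor to neuron, were set beside the family. Of the 11 on the array 8 were tested, 0 were called higher and 4 lower, where 7.19% of all tested miRNAs were called higher and 26.1% lower. The 4 were miR-124*, miR-137, miR-153 and miR-7a. Of these miR-153 was well above background on no E16 array and entered the test only through its E13 arrays, which fixed its direction. Among the 7 others tested 3 were called lower, and their median difference was −0.15, against −0.40 over all tested miRNAs. Over the 75 miRNAs bright on every array the median was also −0.15. The summed scaled signal of all 11 was 0.58 to 1.99 on E16 arrays and 1.27 to 1.58 on E13 arrays. The miR-9 and miR-9* arms differed by −0.09 (limma adjusted p 0.76) and 0.33 (adjusted p 0.37). The part of these markers in the rise of miR-181a was not tested.

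The adjusted p of miR-181a stayed under 0.05 in 23 of 24 alternative treatments of the data and was above it with the dimmer probe. Among the 23 is the fit within slide 3, in which a lone E16 array is assumed to vary like the E13 arrays. The brighter probe on its own, no filter, the filter for all 8 arrays and the replicate block necessarily kept the difference of 0.85. They varied only its spread or the adjustment of p. The dimmer probe was the alternative that left the brighter probe out. Within slide 2 its difference was 0.99 (limma adjusted p 0.030), and within slide 3, which has 1 E16 array, it was 0.83. Leaving out each array in turn gave 0.77 to 0.90, and scaling to the 75th percentile of every mouse probe gave 1.67. For miR-181c 10 of 24 alternatives, the dimmer probe among them, brought the adjusted p under 0.05, and 1, within slide 3, turned the sign. That dimmer probe entered its fit mainly through E16 and gives no call, and the mean of all probes draws on it. Leaving out E16 replicates 1 and 4 together, counted for miR-181a and miR-181c alike, was chosen after seeing the data.

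**Figure D4:**
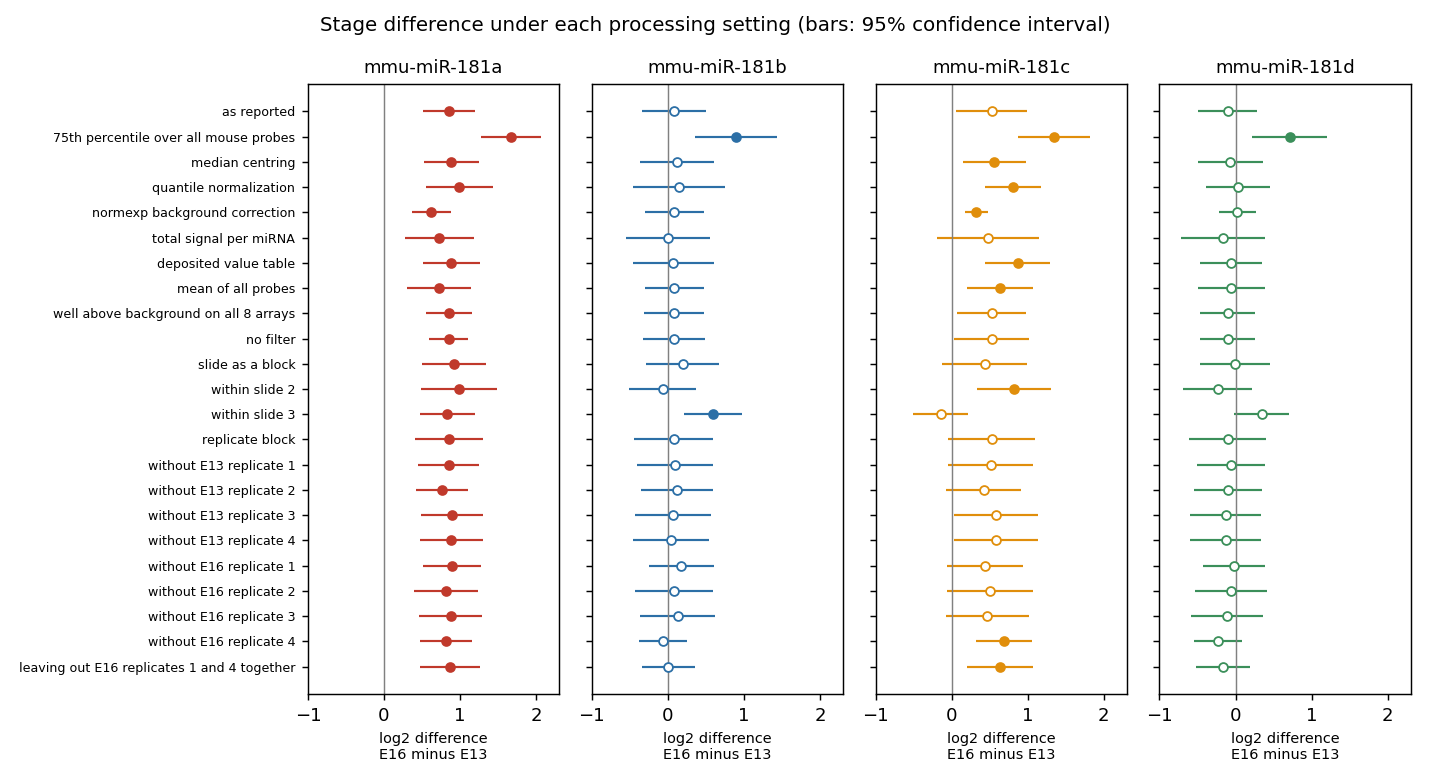
Log2 difference of each miR-181 member, E16 minus E13, under the reported processing and 22 alternatives, the fits of single probes left out, with 95% confidence intervals; filled points had a limma adjusted p under 0.05. The miR-181a points shown lie between 0.62 and 1.67 and are all filled, while those of miR-181c are filled in some settings and those of miR-181d lie on both sides of 0.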

How the data were processed

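Per the file headers, the authors' scanner files, made with Agilent Feature Extraction 10.7.3.1 according to the submitters' processing notes, give a background-subtracted processed intensity per spot, not scaled between arrays. Per the same headers, other columns of the deposited files flag bright and outlying spots with 0 or 1. In the value table the authors gave log2 values for 1187 spots, with no software named in the sources used here, and these served as an alternative only. Its columns ranked spots as the processed signals did (Spearman correlation 1), higher meaning brighter, and each had a median of 6.90.

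Control and outlier spots (1.91% to 3.87% of mouse spots per array) were left out, and no spot was saturated. Spots of a probe were averaged, and a probe counted as well above background where a share of 0.5 of its spots did. Signals were scaled as described, floored at log2 −5.96 and logged. The probe with the highest mean stood for its miRNA. The 153 miRNAs well above background on at least 4 arrays were fitted with limma 3.58.1 (lmFit, eBayes) in R 4.3.3. The fit was tested on simulated data. Stage and replicate came from the sample titles. The number of arrays limits the precision.

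The named miRNAs were the members, other arms, chromosome 8 neighbours, marker lists and the 3 closest levels per member. The members and lists were chosen with earlier results of these data known. Alternatives varied the scaling, background correction, signal column, probe, filter, slide, replicate pairing and replicates.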

Additional observations from a re-analysis of the deposited data

Results flagged for a closer look

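In 36 groups of 4 arrays examined, 1 array lay apart from the other 3. The gap between the brighter and the dimmer miR-181a probe was 2.92 on the log2 scale on E16 replicate 1, against at most 2.18 on the other E16 arrays and 1.93 to 2.17 on E13 arrays. The distance to the next array was 0.853 of the range of the E16 arrays, above the critical value of Dixon's test for 4 samples. Chance gives such a value in about 1 of 20 groups. On that array the dimmer probe was low (−3.99 on the log2 scale) while the brighter probe (−1.07) lay above every E13 array, and E16 replicate 1 was also the only array of its slide.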

How the results depend on the processing

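Differences are log2 values, E16 minus E13. Scaled to the 75th percentile of every mouse probe, miR-181b differed by 0.90 (limma adjusted p 0.013), miR-181c by 1.34, miR-181d by 0.71 and miR-181a by 1.67, with 47 miRNAs higher and 16 lower. For miR-181c the adjusted p also fell under 0.05 with median centring (0.56), quantile normalization (0.81), normexp (0.33), the deposited table (0.87), the mean of all probes (0.63), the dimmer probe (0.74, mostly below the background threshold at E13), within slide 2 (0.81) and without E16 replicates 1 and 4 (0.64, an alternative chosen after seeing the data). The miR-181d difference turned positive with quantile normalization (0.035) and normexp (0.021). Calls were 20 higher with quantile normalization and 19 with normexp, and 12 lower with the deposited table (84 miRNAs) and 10 lower when only the 75 miRNAs bright on every array were tested. Within slide 2, miR-181b was −0.069 and 25 miRNAs were lower. Within slide 3, where the 1 E16 array is assumed to vary like the E13 arrays that give the spread, miR-181b was 0.60 (adjusted p 0.024), miR-181c −0.14 and miR-181d 0.34, and 88 miRNAs were lower. The dimmer miR-181a probe gave 0.59 (adjusted p 0.12). Differences between pairs of members moved to 1.05 in slide 2 and 0.23 in slide 3 for miR-181a over miR-181b, and to 1.22 and 0.49 for miR-181a over miR-181d. In slide 3 they were 0.97 for miR-181a over miR-181c, 0.74 for miR-181b over miR-181c and −0.48 for miR-181c over miR-181d, while in slide 2 they were 0.17, −0.88 and 1.05 for these pairs. The cause of these shifts was not tested.

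Leaving out each array gave 0.77 to 0.90 for miR-181a, −0.068 to 0.18 for miR-181b, 0.42 to 0.69 for miR-181c, −0.23 to −0.02 for miR-181d, and 9 to 17 miRNAs higher and 29 to 54 lower. For pairs it gave 0.13 to 0.46 for miR-181a over miR-181c, −0.76 to −0.26 for miR-181b over miR-181c and 0.46 to 0.92 for miR-181c over miR-181d. The lowest miR-181b and miR-181d values, the highest miR-181c value and the highest counts came without E16 replicate 4. The replicate numbers did not pair the arrays, as the correlations of their deviations were −0.10, 0.07, 0.27 and −0.15. With the replicate block, miR-181a differed by 0.85 (adjusted p 0.018), miR-181b by 0.08, miR-181c by 0.52 (adjusted p 0.15) and miR-181d by −0.11, with 10 miRNAs higher and 35 lower, so no member's call changed.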
